A study of Mus musculus with 55 samples.

Results

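Mitochondrial fatty acid oxidation was followed in the gonadal white fat of mice through 10 genes, Cpt1a, Cpt1b, Slc25a20, Cpt2, Acadvl, Acadl, Acadm, Hadha, Hadhb and Acaa2. They were taken by symbol from a table of 43432 Ensembl genes in 55 libraries, and each symbol matched 1 row. All 10 passed the filter on low counts, as did 21113 genes in all.

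Long-chain fatty acids enter mitochondria as acylcarnitines. A carnitine palmitoyltransferase of the outer membrane makes them, a carrier exchanges them across the inner membrane, and a transferase on the matrix side returns the acyl group to coenzyme A. Repeated rounds of dehydrogenation, hydration, a further dehydrogenation and thiolysis then shorten the chain to acetyl-CoA. White adipocytes mainly store fatty acids and release them for other tissues, and they oxidise less than muscle, liver or brown fat.

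The animals were C57BL/6 mice aged 6 months. They were wild type (WT) or heterozygous for an Htt knock-in allele, Htt being the gene whose expanded repeat causes Huntington's disease. Alleles Q20, Q80, Q92, Q111, Q140 and Q175 are named for 20, 80, 92, 111, 140 and 175 CAG repeats, and Q20 lies in the unexpanded range. Each genotype had 4 female and 4 male libraries, except that WT had 3 female ones. WT and Q20 mice shared housing and every other genotype was housed with its own kind, so housing and genotype cannot be told apart except between WT and Q20. WT mice were described as littermates of the knock-in mice, and no treatment was given in the labels. Names of WT and Q175 libraries carry a code that all libraries of a genotype and sex share, and its meaning is not given in the labels. Nothing states that replicates were separate cages or litters, so the p-values measure the spread between these libraries.

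Libraries held 35094442 to 51363637 counts (median 42009365). The X-inactivation transcript Xist and the Y-linked gene Ddx3y contradicted the labelled sex of 2 libraries, Q140 female 1 and Q140 male 4. Values without them are given beside the sex comparison. The 9 adipocyte markers summed to between 3564 and 37792 CPM (counts scaled to library size), and Adipoq, the adipocyte hormone, was present in every library at 454 CPM or more. Summed epididymis and testis markers reached 100 CPM in 13 male libraries, among them all 4 Q175 males and no WT male. Summed skeletal muscle markers reached 100 CPM in 11 libraries. The library numbers placed the 15 WT and Q175 libraries in 1 block and 39 of the others in another, with Q20 female 2 numbered apart from both. Q175 against Q20 and Q20 against WT therefore also compare blocks, while Q175 against WT does not. Because whole tissue was sequenced, fewer cells of a type and less RNA per cell cannot be told apart.

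Hadha and Hadhb encode the α and β subunits of the trifunctional protein, the complex that carries out the last 3 steps on long chains. Their promoters are shown because the genes lie head to head on mouse chromosome 5 and these windows overlap. Cpt1a, the rate-controlling entry enzyme, is shown because it moved apart from the other members. The windows run from 250 bases before to 50 bases after each start site, from RefSeq on GRCm38.p6, and are printed 5′ to 3′ on the strand of the gene. They are Hadha at chr5:30154931-30155230 on the minus strand, Hadhb at chr5:30155003-30155302 on the plus strand and Cpt1a at chr19:3323051-3323350 on the plus strand. Capitals mark GC boxes (GGGCGG) and CCAAT boxes on either strand.
Hadha: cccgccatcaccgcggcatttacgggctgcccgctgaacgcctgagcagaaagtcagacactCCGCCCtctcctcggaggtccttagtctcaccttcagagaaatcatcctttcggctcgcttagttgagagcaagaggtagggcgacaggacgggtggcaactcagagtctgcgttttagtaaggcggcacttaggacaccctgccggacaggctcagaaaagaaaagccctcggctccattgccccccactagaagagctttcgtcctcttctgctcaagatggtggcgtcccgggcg
Hadhb: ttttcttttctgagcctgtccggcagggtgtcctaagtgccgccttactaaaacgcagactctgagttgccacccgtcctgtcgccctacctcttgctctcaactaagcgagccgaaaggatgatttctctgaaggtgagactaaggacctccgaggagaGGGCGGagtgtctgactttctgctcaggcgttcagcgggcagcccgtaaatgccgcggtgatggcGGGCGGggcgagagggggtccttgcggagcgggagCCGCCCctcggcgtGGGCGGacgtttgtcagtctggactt
Cpt1a: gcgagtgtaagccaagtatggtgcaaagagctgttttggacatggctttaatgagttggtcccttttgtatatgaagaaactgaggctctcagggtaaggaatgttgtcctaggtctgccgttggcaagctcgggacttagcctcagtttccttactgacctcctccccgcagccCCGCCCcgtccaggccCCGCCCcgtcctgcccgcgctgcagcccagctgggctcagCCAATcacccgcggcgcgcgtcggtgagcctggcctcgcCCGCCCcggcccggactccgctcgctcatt

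The Hadha and Hadhb start sites point away from each other with 272 bases between them, and the windows share 228 bases, which a comparison of the letters found identical as reverse complements. Promoters were held for 8 of the 10 genes. GGGCGG was found in 6 of the 8 (Acadl, Cpt2, Hadha, Hadhb, Slc25a20 and Cpt1a) and in 35.7% of 32851 mouse promoter windows of the same length. The Hadha box lies in the bases shared with Hadhb and is the same DNA as 1 of the Hadhb boxes, so these windows are not separate matches. CCAAT was found in the Cpt1a window alone among the 8 and in 37.4% of all windows. TATAAA was in none of the 8 and in 13.6% of all. The peroxisome proliferator repeat AGGTCANAGGTCA (0.0396% of all windows) and the oestrogen-related receptor element TCAAGGTCA (0.423%), which share the letters AGGTCA, matched none of the 8. No match says only that these letters are not in this window.

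Levels between genes were compared per length, in FPKM as deposited (fragments scaled for transcript length and sequencing depth). Over the 55 libraries Acadm, the medium-chain acyl-CoA dehydrogenase, had the highest median at 191 FPKM. It was followed by Hadhb at 162 FPKM, Acadl, the long-chain acyl-CoA dehydrogenase, at 139.6 FPKM and Acadvl, the very-long-chain one, at 94.4 FPKM. Hadha followed at 81.9 FPKM, and Acaa2, the thiolase acting on shorter chains, at 72.3 FPKM. The transport genes were lower. Cpt2, the inner-membrane transferase, had a median of 61.9 FPKM and Slc25a20, the carnitine-acylcarnitine carrier, 34.4 FPKM. Cpt1a, the form named for liver, had 16.2 FPKM, and Cpt1b, the form of muscle and brown fat, had 1.67 FPKM with a highest value of 40.7 FPKM. Each gene exceeded the next in this order in 43 to 55 of the 55 libraries, except that Hadha exceeded Acaa2 in 33, so that pair was not separated. The Hadhb to Hadha ratio of FPKM had a median of 1.99 and was lowest, at 1.07, in Q92 male 1.

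**Figure D1:**
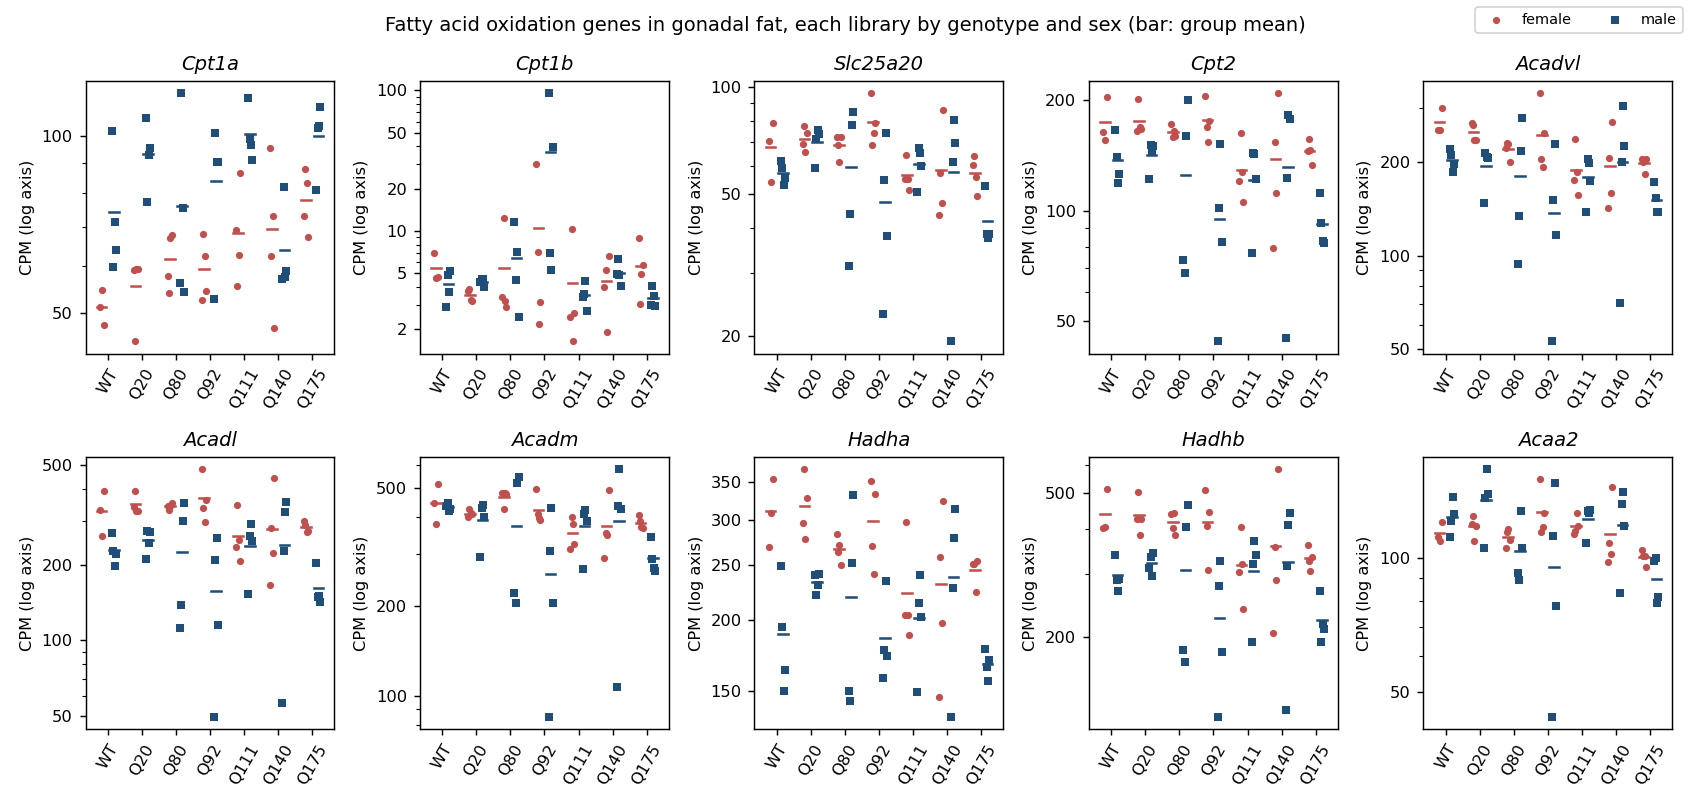
Level of each gene in CPM on a log axis (1 panel per gene) in every library, by genotype from WT to Q175, with female and male libraries marked apart and bars at the group means. Male Cpt1a points lie above most female ones, Cpt1b is spread mainly in Q92, and the lowest point of each of the other 8 genes is Q92 male 1 or Q140 male 1.

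The members fell into unlike patterns across libraries. Over the 55 libraries, the 28 pairs among the 8 genes other than Cpt1a and Cpt1b had Pearson correlations of log2 CPM from 0.467 to 0.971 (Acadl with Cpt2), with a median of 0.907. Cpt1a had negative correlations with those 8 genes, from -0.0917 to -0.568 (Hadha), and Cpt1b from -0.0561 to -0.397. These describe libraries that also share sex, genotype and cell makeup. Among genes outside the 10, the 5 most like the mean standardised level of the members were Decr1, which handles unsaturated chains, Fam213a, Echs1, the short-chain enoyl-CoA hydratase, Trap1, a mitochondrial chaperone, and Idh3g, a subunit of isocitrate dehydrogenase. Their Pearson r over the 55 libraries ran from 0.948 to 0.967.

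The comparison of the sexes called more of the 10 members than any other. Averaged over the 7 genotypes, 6 of 10 members were called at an adjusted p under 0.05 by edgeR's quasi-likelihood test with Benjamini-Hochberg adjustment, against 46.3% of all genes tested. Cpt1a was higher in males and Acadl, Hadhb, Hadha, Cpt2 and Acadvl were lower. The higher direction held 27.9% of all genes and the lower direction 18.3%. The median difference of the members was -0.28 on the log2 scale, beside 0.07 over all genes tested.

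Cpt1a in the 27 female libraries ran from 44.8 CPM through a median of 62.5 to 95.3 CPM, and in the 28 male libraries from 52.9 through 90.3 to 118 CPM. The ranges overlapped, the upper male values passed every female one, and the highest value labelled female was that of Q140 female 1. The male minus female difference was 0.41 ± 0.08 on the log2 scale (SE, adjusted p = 3.48e-05), 1.33-fold. Within WT, Cpt1a was 51.1, 54.8 and 47.7 CPM in females and 102, 59.9, 71.5 and 63.9 CPM in males. Within Q20 it was 59.2, 44.8, 59.3 and 59.4 CPM in females and 107, 77.1, 92.8 and 95.3 CPM in males. In both genotypes every male library lay above every female one.

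Acadl had a female range of 166 to 482 CPM with a median of 329 CPM, and a male range of 49.4 to 355 CPM with a median of 223 CPM. The lowest male values lay far under the lowest female one, and the upper parts of the ranges overlapped. Acadl fell by 0.57 ± 0.14 on the log2 scale in males (edgeR adjusted p = 0.000856), to 0.674 of the female level. For the trifunctional protein, Hadhb ran from 206 through 400.2 to 584 CPM in females and from 120.5 through 293 to 466 CPM in males. Hadha ran from 146 through 269 to 368 CPM in females and from 135 through 198 to 332 CPM in males. Both subunits overlapped between the sexes over much of their range. The difference was -0.44 ± 0.11 for Hadhb (edgeR adjusted p = 0.00128) and -0.40 ± 0.08 for Hadha (edgeR adjusted p = 0.00017).

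Cpt2 had medians of 160 CPM in females (79.4 to 209 CPM) and 123 CPM in males (44.2 to 200.1 CPM), a difference of -0.39 ± 0.12 (edgeR adjusted p = 0.00553). Acadvl had medians of 223 CPM in females (143 to 334 CPM) and 192 CPM in males (53.1 to 304 CPM), a difference of -0.33 ± 0.11 (edgeR adjusted p = 0.014). Both genes overlapped between the sexes. The other members were not called. Slc25a20 differed by -0.23 ± 0.10 (edgeR adjusted p = 0.0727), Acadm by -0.20 ± 0.12 (0.16), Acaa2 by -0.03 ± 0.07 (0.745) and Cpt1b by 0.16 ± 0.24 (0.643).

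Within genotypes the sexes separated for some members. In Q175, all 4 males lay under all 4 females for 6 members (Cpt2, Acadvl, Acadl, Acadm, Hadha and Hadhb), where 12.2% of all genes did so. Acadl in Q175 was 299.8, 289, 269.7 and 273 CPM in females and 204, 149, 150.3 and 142 CPM in males. The adipocyte marker sum in Q175 was 14363 to 18516 CPM in males and 21290 to 24148 CPM in females. The 8 genes other than Cpt1a and Cpt1b were also summed per 100 CPM of these markers. That gave 7.57 to 7.83 CPM in Q175 males and 6.86 to 8.03 CPM in Q175 females. The Q175 males held 491 to 2843 CPM of epididymis and testis markers. The part of these markers in the Q175 separation was not tested. In Q20 all males lay under all females for 5 members (Cpt2, Acadvl, Acadl, Hadha and Hadhb), beside 7.98% of all genes, and Cpt1a and Cpt1b were higher in every male, beside 6.01%. In WT it held for Acadvl, Hadha and Hadhb, beside 8.42% of all genes, and Cpt1a was higher in every male, beside 8.17%. In Q92 it held for Cpt2, Acadl and Hadha, beside 6.02% of all genes, and no member was higher in every male, beside 8.04%. In Q111 Cpt1a was higher in every male, beside 5.85% of all genes, and no member was lower in every male, beside 5.36%. In Q80 and Q140 all 10 members overlapped between the sexes, while of all genes 4.29% and 1.35% were higher in every male and 5.0% and 0.995% lower. The Q140 groups as labelled hold Q140 female 1 and Q140 male 4, whose sex genes contradict their labels. A test of whether the sex difference varied between genotypes called 0 of 10 members, with 2.06% of all genes called. At an unadjusted p under 0.05 it held 0 members, and DESeq2 also called 0. Without those 2 Q140 libraries the test called 0 members as well. With all libraries it called all 5 genes used to check sex, Xist and Ddx3y among them.

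Markers of cell types and other tissues are read here beside the 27.9% of all genes called higher in males and the 18.3% called lower. Of 12 epididymis and testis markers, 9 were tested, 4 were higher in males and 1 lower, and their sum ran from 0.332 to 26291 CPM in males against at most 16.5 CPM in females, the latter in Q140 female 1. Crisp1, an epididymal protein, reached 22049 CPM in Q140 male 1 and was at 0 in several female libraries. All 11 skeletal muscle markers were lower in males. Of 7 brown and beige fat markers 6 were lower, with a median of -1.29, among them Ucp1 (means of 0.0536 CPM in males and 1.06 CPM in females, -3.62 ± 0.65, edgeR adjusted p = 1.83e-05), the uncoupling protein. Of 9 adipocyte markers 3 were lower, Retn, Slc2a4 and Pnpla2, with a list median of -0.23. Mesothelium markers were lower for 3 of 5 and progenitor markers for 2 of 7, and macrophage markers were higher for 2 of 7. The macrophage count lay near the share of all genes, and no list count was tested against these shares. The part of the brown and beige fat, adipocyte, mesothelium, progenitor and macrophage markers in the sex difference was not tested. The 8 genes other than Cpt1a and Cpt1b summed to 577 to 2298 CPM, median 1132 CPM, in the 13 males at or over 100 CPM of epididymis and testis markers. They summed to 1138 to 2361 CPM, median 1772 CPM, in the 14 males under it and to 1393 to 2626 CPM, median 1987 CPM, in 26 females, the 2 Q140 libraries being left out of these sets. Cpt1a had medians of 90.2 CPM and 90.8 CPM in those male sets and 61.0 CPM in the females.

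**Figure D2:**
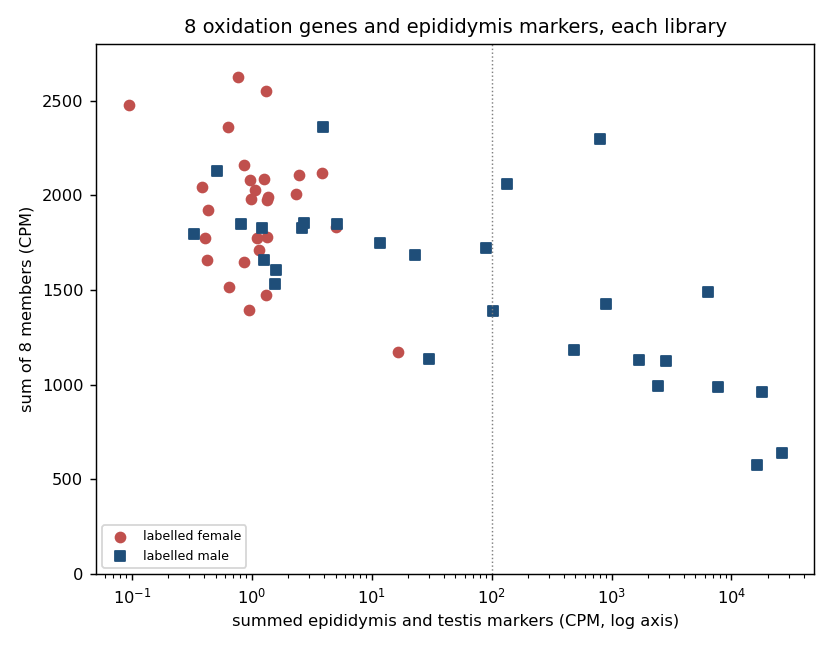
Sum of Slc25a20, Cpt2, Acadvl, Acadl, Acadm, Hadha, Hadhb and Acaa2 in CPM (vertical axis) against summed epididymis and testis markers in CPM (horizontal log axis), 1 point per library, circles labelled female and squares labelled male, with a dotted line at 100 CPM. The lowest sums, 577 and 642 CPM, belong to male libraries with 16296 and 26291 CPM of these markers.

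Without the 13 libraries and the 2 Q140 libraries, in an additive design chosen after seeing the data, 5 members were called, 2 higher and 3 lower, against 37.2% of all genes (21.3% higher and 15.9% lower). That fit held no Q175 male and fewer males of Q20, Q80, Q92 and Q140. It therefore weighs the genotypes unlike the average over all of them given above. Cpt1a kept its direction at 0.51 ± 0.08 (edgeR adjusted p = 5.56e-06). Acadl was lower by -0.32 ± 0.09 (0.00715), Hadha by -0.30 ± 0.09 (0.00931) and Hadhb by -0.28 ± 0.10 (0.0214). Acadvl at -0.14 ± 0.08 (0.171) and Cpt2 at -0.17 ± 0.08 (0.114) were no longer called, and Acaa2 was higher in males by 0.15 ± 0.05 (0.0147). Within the WT and Q175 block alone 8 members were called (26.3% of all genes), and within the other block of 39 libraries 3 were called (34.2% of all genes), where Hadhb stood at -0.38 ± 0.15 (adjusted p = 0.0551), Cpt2 at -0.34 ± 0.16 (0.102) and Acadvl at -0.30 ± 0.16 (0.137). Without the libraries high in muscle markers, Acadvl (-0.24 ± 0.12, adjusted p = 0.132) and Cpt2 (-0.33 ± 0.14, 0.0685) were not called and Cpt1b was, at 0.50 ± 0.20 (0.0462). Without only the 2 Q140 libraries 7 members were called, Slc25a20 being added at -0.26 ± 0.11 (0.0443). Slc25a20 was also called when any 1 of Q80 male 3, Q80 male 4, Q92 male 3 or Q140 male 3 was left out, with adjusted p from 0.025 to 0.0481.

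**Figure D3:**
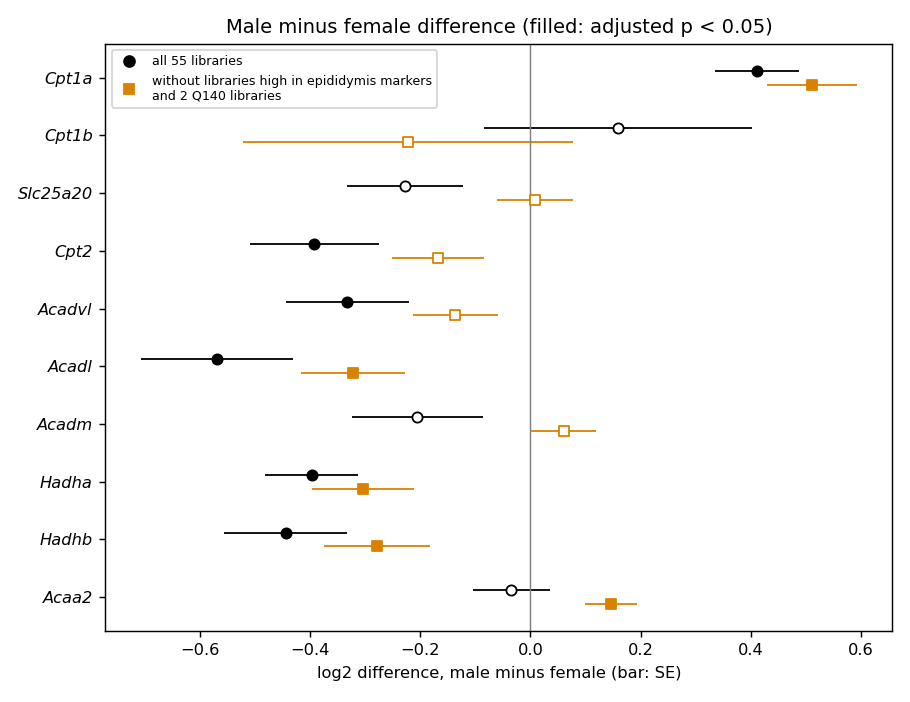
Male minus female difference on the log2 scale with its SE for each gene, over all 55 libraries (circles) and without the male libraries at or over 100 CPM of epididymis and testis markers and the 2 Q140 libraries (squares), filled where the adjusted p was under 0.05. Cpt1a lies to the right in both, and Acadl, Hadha and Hadhb to the left in both. The squares come from an additive fit that held no Q175 male.

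Other genes of fatty acid oxidation were also called between the sexes, to be read against the 27.9% of all genes called higher and the 18.3% called lower in males. Of 19 other mitochondrial β-oxidation enzymes, 13 were lower in males and 1 was higher (Acot9, an acyl-CoA thioesterase, 0.46 ± 0.15, edgeR adjusted p = 0.0104). The lower ones included Acad11 (-0.85 ± 0.12, 2.56e-07), Acadsb, which acts on branched chains (-0.69 ± 0.08, 2.14e-08), Decr1 (-0.40 ± 0.13, 0.0093) and Hadh, the short-chain hydroxyacyl-CoA dehydrogenase (-0.31 ± 0.11, 0.0208). The median of the 19 was -0.28. Etfb, of the flavoprotein that takes the electrons, was lower (-0.46 ± 0.12, 0.00238), and it was the 1 of 3 genes of that chain called. Of 15 genes of peroxisomal β-oxidation, 7 were lower, including Decr2 (-0.31 ± 0.05, 1.12e-06), and 1 was higher, Acox3 (0.51 ± 0.19, 0.0253).

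Upstream of the mitochondrion, Acsl1, the main acyl-CoA synthetase of fat, had a mean of 2812 CPM in females and 1238 CPM in males (-1.18 ± 0.16, edgeR adjusted p = 1.46e-07). Acaca, whose product malonyl-CoA inhibits carnitine palmitoyltransferase 1, had means of 2532 CPM and 1031 CPM (-1.33 ± 0.27, 9.58e-05), and Mlycd, which degrades malonyl-CoA, was lower too (-0.26 ± 0.10, 0.0351). Of the 9 genes of malonyl-CoA and AMP kinase control, 5 were lower in males and 1 was higher. Slc22a5, the carnitine transporter of the plasma membrane, was higher (0.53 ± 0.15, 0.00332). Bbox1, which makes carnitine, was higher too (3.99 ± 0.87, 0.000256), at low levels. Its means were 1.2 CPM in females, 3.12 CPM in males and 0.107 CPM in Q20. In all, 3 of 5 tested genes of carnitine supply were higher. Of 10 target genes of the peroxisome proliferator-activated receptors outside β-oxidation, 4 were higher, among them Angptl4 (0.55 ± 0.17, 0.00555), and Pdk4 was lower (-0.61 ± 0.18, 0.00395). Of 13 transcriptional regulators, 4 were lower, including Pparg (-0.38 ± 0.14, 0.0267) and Esrra (-0.25 ± 0.06, 0.00125), and Esrrg was higher (3.0 ± 0.57, 4.26e-05).

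In Q175 against WT, Cpt1a was higher and was the 1 member of 10 called, with 10.4% of all genes called, 3.34% higher and 7.1% lower. In females Cpt1a was 73, 87.8, 83.2 and 67.3 CPM in Q175 and 51.1, 54.8 and 47.7 CPM in WT. Every Q175 female lay above every WT female, as 10.7% of all genes did. In males Cpt1a was 81, 103, 104 and 112 CPM in Q175 and 102, 59.9, 71.5 and 63.9 CPM in WT, where WT male 1 lay among the Q175 values. The difference over both sexes was 0.52 ± 0.15 (edgeR adjusted p = 0.0193), 1.43-fold. It was not called without WT female 3 (0.49, adjusted p = 0.0617) or without WT male 2 (0.47, 0.0502), nor with the L code of the library labels as a factor (0.46 ± 0.15, 0.0948). It was called in the female libraries alone at 0.62 ± 0.15 (0.0249), where 5.23% of all genes were called. All fits on females alone, here and below, were made without Q140 female 1.

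The enzymes behind Cpt1a had lower values in Q175 than in WT and were not called. The differences of the other 8 genes apart from Cpt1b lay between -0.26 ± 0.16 for Hadha (edgeR adjusted p = 0.33) and -0.44 ± 0.22 for Acadvl (0.198). The median of the 10 was -0.35, beside 0.01 over all genes tested. Acadvl in females was 205, 201, 184 and 206 CPM in Q175 and 254, 254 and 300.2 CPM in WT. Acadvl in males was 173, 154, 139 and 138 CPM in Q175 and 221, 212, 186 and 198 CPM in WT. The groups did not overlap in either sex. All Q175 libraries lay under all WT libraries for 4 members in females (Acadvl, Hadha, Hadhb and Acaa2, beside 13.1% of all genes) and for 6 in males (Slc25a20, Cpt2, Acadvl, Acadm, Hadhb and Acaa2, beside 11.2%).

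When the fit held WT and Q175 libraries alone, 8 members were called, 7 lower and Cpt1a higher, against 27.3% of all genes (13.5% higher and 13.8% lower). The lower ones ran from -0.30 ± 0.06 for Acaa2 (edgeR adjusted p = 0.00442) to -0.41 ± 0.06 for Acadvl (0.000897). In that fit the spread was estimated from 15 libraries, and the spread over all 55 was not used. In the female libraries alone, Cpt1a was the 1 member called, and Acadvl stood at -0.42 ± 0.16 (0.127).

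Cell markers moved with this comparison. The adipocyte markers summed to 14363 to 18516 CPM in Q175 males against 24760 to 26420 CPM in WT males, and to 21290 to 24148 CPM in Q175 females against 22073 to 31661 CPM in WT females. None of the 9 was called. Of 7 macrophage and 7 progenitor markers, 5 each were higher in Q175, beside 3.34% of all genes. The macrophage sum was 1046 to 1091 CPM in Q175 females and 367 to 654 CPM in WT females, and 961 to 1136 CPM and 494 to 1152 CPM in males. The progenitor sum was 889 to 985 CPM in Q175 females and 324 to 564 CPM in WT females, with medians of 719.5 CPM in Q175 males and 398.4 CPM in WT males, whose highest libraries had 764 CPM and 828 CPM. The epididymis and testis sum was 491 to 2843 CPM in Q175 males and 0.821 to 23.2 CPM in WT males. Per 100 CPM of adipocyte markers, the 8 genes other than Cpt1a and Cpt1b summed to 7.57 to 7.83 CPM in Q175 males and 6.18 to 7.04 CPM in WT males, the reverse order of the sums themselves. In females this value was 6.86 to 8.03 CPM in Q175 and 7.43 to 8.72 CPM in WT. The part of cell makeup in the differences was not tested further. The share of counts on mitochondrial genes was 8.27% to 8.73% in Q175 females and 9.56% to 13.8% in WT females, and 6.24% to 7.4% in Q175 males and 7.19% to 12.8% in WT males.

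**Figure D4:**
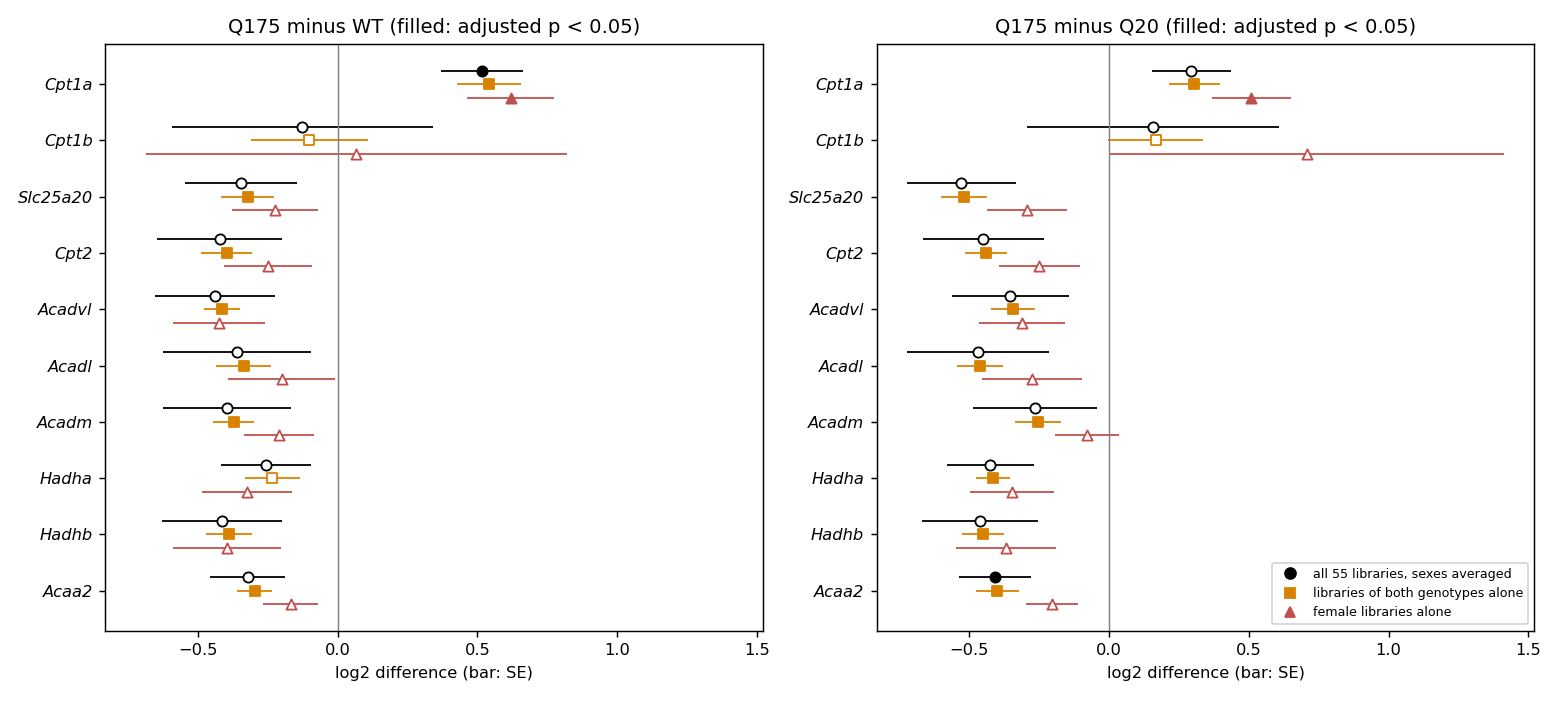
Difference of Q175 from WT and from Q20 on the log2 scale with its SE for each gene, over all 55 libraries (circles), the libraries of both genotypes alone (squares) and the female libraries alone (triangles), filled where the adjusted p was under 0.05. Cpt1a lies to the right, and the 8 genes other than Cpt1b to the left, in both comparisons.

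Against Q20, which shares the Q175 libraries with the comparison above, Acaa2 was the 1 member of 10 called, with 14.2% of all genes called, 4.54% higher and 9.7% lower. In females Acaa2 was 104, 101, 101 and 95.2 CPM in Q175 and 119, 124, 109 and 118 CPM in Q20. In males it was 98.3, 99.9, 78.9 and 81.5 CPM in Q175 and 105, 136, 158 and 139 CPM in Q20. The groups did not overlap in either sex. Acaa2 fell by 0.41 ± 0.13 on the log2 scale (edgeR adjusted p = 0.0267). Without Q175 male 3 it stood at -0.36 (0.0845), without Q175 male 4 at -0.37 (0.0761), without Q20 female 2 at -0.38 (0.0571) and without Q20 male 3 at -0.36 (0.0706), none of them called. With the trend over transcript length removed it was -0.12 ± 0.09 (0.486), on log2(FPKM + 0.1) with limma -0.16 ± 0.11 (0.311), and in females alone -0.20 ± 0.09 (0.154).

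Slc25a20 and Hadha stood just short of the threshold in the same comparison. Slc25a20 in females was 60.4, 63.9, 55.8 and 49.5 CPM in Q175 and 68.9, 77.8, 65.5 and 74 CPM in Q20. Slc25a20 in males was 52.6, 38.6, 37.7 and 38.7 CPM in Q175 and 59.2, 71.3, 75.4 and 73.5 CPM in Q20. Neither sex overlapped, and the difference was -0.53 ± 0.20 (edgeR adjusted p = 0.0615). Hadha differed by -0.42 ± 0.15 (0.0584), Cpt1a by 0.29 ± 0.14 (0.171), and the remaining 5 genes other than Cpt1b by -0.26 to -0.47. Cpt1a was called in females alone (0.51 ± 0.14, 0.0208) and in the additive design without epididymis-high libraries and the 2 Q140 libraries (0.42 ± 0.15, 0.0399), and Hadha with the trend over transcript length removed (-0.56 ± 0.15, 0.0155). That additive design held no Q175 male, so both Cpt1a calls rest on the same Q175 females. Slc25a20 was called without Q140 male 1 (-0.51, 0.0267), Q20 male 1 (-0.56, 0.0492), Q92 male 1 (-0.52, 0.0464) or Q92 male 3 (-0.53, 0.0464), and Hadha without Q140 male 1 (-0.41, 0.0451) or Q80 male 4 (-0.42, 0.0402). All Q175 females lay under all Q20 females for 7 members (beside 14.5% of all genes) and over them for Cpt1a (10.5%), and all Q175 males lay under all Q20 males for 6 (9.55%). With Q175 and Q20 libraries alone in the fit 9 members were called, Cpt1a higher and 8 lower, against 29.3% of all genes (13.4% higher and 15.9% lower).

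Cell markers are given here beside the 4.54% of all genes called higher and the 9.7% called lower against Q20. The adipocyte marker median was -0.41, beside -0.42 for the 10 members, and 1 of 9 adipocyte markers was called, Retn (-0.88 ± 0.31, edgeR adjusted p = 0.0476). Higher in Q175 were 3 of 7 progenitor markers, Pdgfra, Zfp521 and Fbn1 (0.62 to 0.82), 1 of 7 macrophage markers, Mrc1 (0.64 ± 0.19, 0.0138), 1 of 5 endothelial markers, Vwf (1.04 ± 0.28, 0.00711), 1 of 7 brown and beige fat markers, Prdm16 (0.54 ± 0.15, 0.0109), and 1 of 9 tested epididymis and testis markers, Gpx5 (means of 49.8 CPM in Q175 and 0.00579 CPM in Q20, 0.016). In Q175 males 3 and 4 Crisp1 made up 1690 of 1696 CPM and 2836 of 2843 CPM of the epididymis and testis sum. Little Gpx5 can lie in those libraries, so its mean rests on few. Of 8 exocrine pancreas markers 2 were higher. The pancreas sum ran from 6.97 to 217 CPM in Q175 females and from 7.44 to 11.9 CPM in Q175 males. The percent of counts on mitochondrial genes was 10.2% to 12.6% in Q20 females and 6.43% to 9.74% in Q20 males, beside the Q175 values given above. The part of these markers in the differences was not tested.

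Other oxidation genes were called in Q175 as follows. Acot13, a mitochondrial acyl-CoA thioesterase, was lower against Q20 (-0.45 ± 0.10, edgeR adjusted p = 0.000952) and against WT (-0.33 ± 0.10, 0.024). Prkag1, a subunit of AMP-activated kinase, was lower against Q20 (-0.28 ± 0.06, 0.0012) and WT (-0.21 ± 0.06, 0.0217). Eci2 (-0.40 ± 0.12, 0.0185), an isomerase for unsaturated chains, and Hsd17b10 (-0.59 ± 0.20, 0.0386) were lower against Q20, and the nuclear receptor Esrra was lower against WT (-0.43 ± 0.12, 0.0164). That made 3 of 19 other mitochondrial enzymes lower against Q20 (beside 9.7% of all genes) and 1 of 19 against WT (beside 7.1%), with medians of -0.38 and -0.30. None of the 15 peroxisomal genes was called in either by edgeR.

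Cpt1b was the 1 member called in Q92 against Q20, with 6.11% of all genes called and 5.91% higher. In Q92 females it was 29.8, 7.14, 2.18 and 3.12 CPM, and in Q92 males 95.1, 6.94, 5.25 and 39.3 CPM. In Q20 it was 3.77, 3.89, 3.25 and 3.19 CPM in females and 4.33, 4.57, 4.54 and 4.01 CPM in males. Q92 female 1, male 1 and male 4 stood far above the rest, and 2 Q92 females lay under all Q20 libraries. The difference was 2.32 ± 0.47 on the log2 scale (edgeR adjusted p = 0.00205), 5.01-fold. Without Q92 female 1 it was 1.65 (0.0159) and without Q92 male 1 it was 1.76 (0.0386).

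Skeletal muscle and epididymis markers were high in those same libraries. Of 11 skeletal muscle markers, 10 were higher in Q92, and Ckm, muscle creatine kinase, reached 893 CPM in female 1 and 620.4 CPM in male 1. Their sum was 9626 CPM in Q92 female 1, 2744 CPM in female 2 and 7118 CPM in male 1, against 74.9 CPM in male 4 and 17.4 to 29.6 CPM in the other 4. Q92 males 1 and 4 also held 16296 and 7752 CPM of epididymis and testis markers. Among Q20 libraries the muscle sum was 5.93 to 161 CPM, and outside Q92 the highest Cpt1b values, 12.4 CPM in Q80 female 2 and 11.6 CPM in Q80 male 1, stood beside 4958 CPM of muscle markers and 17894 CPM of epididymis and testis markers, respectively. Other libraries high in these markers had less Cpt1b. Q140 male 1 held 26291 CPM of epididymis and testis markers, and Cpt1b in Q140 males was at most 6.28 CPM. That sum pools markers of both tissues, and Crisp1 made up 22049 CPM of it in Q140 male 1. The testis markers Prm1 and Prm2 had means of 108 and 195 CPM in Q92 and 0.289 and 1.41 CPM in Q20. Neither was called in Q92 against Q20. Q140 female 2 held 1318 CPM of muscle markers, and Cpt1b in Q140 females was at most 6.63 CPM. The part of these markers in Cpt1b was not tested beyond the fits that follow. Without the libraries at or over 100 CPM of muscle markers, the Cpt1b difference was 0.78 ± 0.37 (edgeR adjusted p = 0.503). Without those at or over 100 CPM of epididymis and testis markers and the 2 Q140 libraries it was 1.20 ± 0.49 (0.616), in females alone 1.59 ± 0.71 (0.623), and with Q92 and Q20 libraries alone 2.31 ± 0.62 (0.136). Brown and beige fat markers summed to 14.8 to 23.7 CPM in Q92 males and 21.4 to 184 CPM in Q92 females. Acsl6 (4.15 ± 0.87, 0.00269), Fabp3 (3.26 ± 0.83, 0.0104) and Esrrb (2.21 ± 0.56, 0.00997) were also higher in Q92, from the lists of acyl-CoA synthetases, receptor targets and regulators. Their levels were low. Means in Q20 and Q92 were 0.24 and 5.51 CPM for Acsl6, 1.25 and 12.1 CPM for Fabp3, and 0.116 and 0.518 CPM for Esrrb. The part of muscle and epididymis markers in these genes was not tested. Fabp3 is the fatty acid binding protein of heart and muscle.

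**Figure D5:**
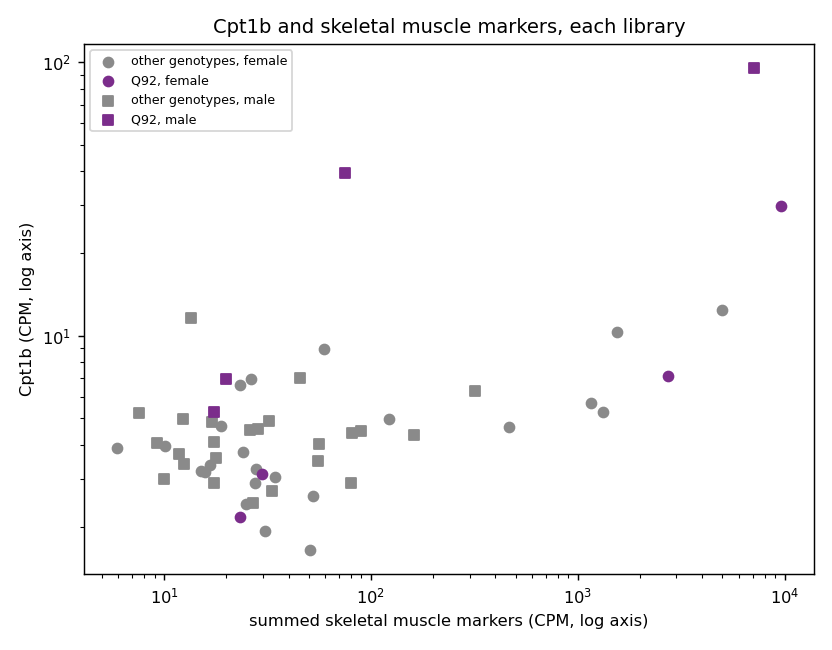
Cpt1b in CPM against summed skeletal muscle markers in CPM, both on log axes, 1 point per library, with Q92 in colour and other genotypes in grey, circles female and squares male. Q92 female 1 and male 1 lie at the upper right, and Q92 male 4, with 39.3 CPM of Cpt1b, lies above the rest at 74.9 CPM of muscle markers.

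The remaining lines showed no called member. In Q20 against WT 0 of 10 members were called by edgeR (0.753% of all genes), 0 had an unadjusted p under 0.05 and DESeq2 called 0, with differences from -0.28 ± 0.47 for Cpt1b to 0.22 ± 0.15 for Cpt1a. Q20 against WT also compares blocks of library numbers. In Q80, Q111 and Q140 against Q20, edgeR called 0 members and 0.0% of all genes. At an unadjusted p under 0.05 stood 1681 genes for Q80, 1466 for Q111 and 2177 for Q140, and DESeq2 called 172, 158 and 499 genes, none of them a member. The members at an unadjusted p under 0.05 numbered 0 in Q80, 1 in Q111 (Hadha, -0.36 ± 0.15, edgeR adjusted p = 0.704) and 0 in Q140. In Q140 the summed 8 genes ran from 642 CPM in male 1, with 26291 CPM of epididymis and testis markers, to 2552 CPM in female 4.

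Over the 6 knock-in genotypes, the slope on repeat number called 0 of 10 members by edgeR, beside 8.32% of all genes. Of these genotypes only Q175 lies in the block of library numbers that holds WT, so the slope also compares blocks. Of the 10, 5 had an unadjusted p under 0.05 and DESeq2 called 1, Slc25a20 (-0.31, adjusted p = 0.0465). Slc25a20 had a slope of -0.32 ± 0.12 per 100 repeats on the log2 scale (edgeR adjusted p = 0.076) and Hadha one of -0.25 ± 0.09 (0.0825). Without Q140 female 4 both were called (0.0375 and 0.0399), without Q140 male 3 Slc25a20 (0.0444) and without Q92 male 1 Acaa2 (-0.19, 0.0383). The other members had slopes from -0.27 ± 0.15 for Acadl to 0.15 ± 0.08 for Cpt1a (edgeR adjusted p = 0.306), whose slope in females alone was 0.29 ± 0.09 and called (0.0449). With the length trend removed Hadha was called (-0.31, 0.0418). Slc25a20 was called in the additive design (-0.24, 0.0312), which held no Q175 male. Taken over Q20 to Q140, leaving Q175 out, the slope called 0 members. Over 16 alternatives the count of all genes called ran from 1 to 2693. In the slope over all 6 genotypes the median of the 10 was -0.22, beside 0.00 over all genes tested. Acot13 (-0.20 ± 0.06, 0.0203) and Prkag1 (-0.13 ± 0.04, 0.0164) were the called genes of the other oxidation lists, both lower with longer repeats. The difference in slope between the sexes called 0 members and 0.0% of all genes by edgeR, with 0 members and 1000 genes at an unadjusted p under 0.05, and DESeq2 called 136 genes and 0 members.

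A test for any difference among the 7 genotypes called Cpt1a and Cpt1b of the 10, with 25.3% of all genes called. Cpt1b had an edgeR adjusted p of 0.000153 and Cpt1a one of 0.0463. The Cpt1a call was lost when any 1 of 33 libraries was left out, with adjusted p from 0.0502 to 0.0868, and Acaa2 was called without Q92 male 3 (0.03). Without the libraries high in muscle markers neither was called (0.198 for Cpt1b and 0.0713 for Cpt1a).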

How the data were processed

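Messenger RNA was measured by RNA-seq in 55 gonadal fat libraries. The authors deposited estimated counts (expected counts, unscaled) and FPKM values scaled for length and depth. Of the nonzero counts 28.7% were not whole (tolerance 0.001), and all were rounded. Per the submitters' processing notes CASAVA 1.8.2 was used. The aligner, genome build, annotation, counter and strand setting were not given in the sources used here. Symbols for 42462 identifiers came from GENCODE M21.

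Counts were tested in edgeR 4.0.16 (R 4.3.3) with TMM scaling, filterByExpr (21113 genes kept), 14 means of genotype and sex and a robust quasi-likelihood fit. Genotype differences average both sexes, the sex difference averages 7 genotypes, and slopes are per 100 repeats over 6 knock-in genotypes. Calls were made at a Benjamini-Hochberg adjusted p under 0.05, and adjusted p-values are edgeR's unless another tool is named. CPM are on TMM-scaled library sizes, and errors of differences are SE. The scripts were tested on simulated data. Alternatives were other scalings, no filter, DESeq2 1.42.0, limma 3.58.1 on log2(FPKM + 0.1) or log2(FPKM + 1), a replicate block, the L code as a factor, subsets of libraries, removal of each library's trend over transcript length, calls at 0.01 and the removal of 1 library at a time. Fits that left out 1 library kept the dispersion trend of all 55. Those by muscle, epididymis and library block were chosen after seeing the data. The 10 members and all lists were chosen with earlier results of these data known. By rule, all 10 members were named in each comparison, with called genes of the pathway lists, and the 5 genes outside them of highest Pearson r with the members' mean standardised level.

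Depth was 35094442 to 51363637 counts per library. Reads carried no molecular identifiers, so depth limits the counting error only. Same-numbered libraries of different groups deviated together about as much as others (median Pearson r 0.00994 over 351 pairs and -0.00426 over 1053 pairs). An r over 0.1 was found in 89 and 234 of these pairs. Replicate numbers were therefore not taken to pair samples.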

Additional observations from a re-analysis of the deposited data

Results flagged for a closer look

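In 13 of 130 sets of 4 libraries (10 genes in 13 groups), 1 library lay far from its 3 companions by Dixon's test, where chance marks about 1 in 20 sets. All values are CPM. Cpt1a was 44.8 in Q20 female 2 and 81.8 in Q140 male 2. Cpt1b was 12.4 in Q80 female 2 and 10.3 in Q111 female 2, which held 4958 and 1539 CPM of skeletal muscle markers. Cpt2 was 202 in Q20 female 2. Slc25a20 at 52.6 and Acadl at 204 in Q175 male 1 were above the other Q175 males, and that library had the highest adipocyte marker sum of them, 18516 CPM. Acadm was 424 in Q80 female 2 and 497 in Q92 female 1. Acadvl was 148 in Q20 male 1, which held 6407 CPM of epididymis and testis markers. Hadha was 297 in Q111 female 2 and 224 in Q175 female 3. Acaa2 was 108 in Q111 male 1. The part of these markers in the values was not tested.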

How the results depend on the processing

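Counts of members called were recomputed under up to 16 alternatives and without each library. For Q175 against Q20 the count of 1 became 3 with DESeq2, 2 in the additive design that drops epididymis-high libraries and 2 from Q140, 9 with the 2 genotypes alone, and 0 with no low-count filter, with upper-quartile scaling and at 0.01. No Q175 male was left in that additive design. With 1 library left out the count ran from 0 to 3. For Q175 against WT it became 8 with the 2 genotypes alone and 0 with the L code and at 0.01, and 0 to 1 with 1 library left out. For Q92 against Q20 it became 0 with the L code, in females, with the 2 genotypes alone and in both sets without marker-high libraries. For any genotype the count of 2 became 4 in the additive design, 0 in females and without muscle-high libraries, 1 with the replicate block, the L code, upper-quartile scaling, length trend removal, log2(FPKM + 0.1) and at 0.01, and 1 to 3 with 1 library left out. For the slope the count of 0 became 1 with DESeq2, in females, with length trend removal and in the additive design, and 0 to 2 with 1 library left out. For male against female it became 3 in the block of 39 libraries. In that comparison Acaa2 turned from -0.03 to 0.15 in the additive design. The cause of these changes was not tested, except that subsets have fewer libraries.

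With the replicate number as a block, Slc25a20 was called between the sexes (-0.25, edgeR adjusted p = 0.0478) and Cpt1a lost its any-genotype call (0.0561), and no other call of a member changed. On log2(FPKM + 0.1) the median of all genes was 0.205 for Q175 against Q20, 0.169 for Q175 against WT and 0.0995 for the slope, and 0.01, 0.01 and 0.00 on counts. Cpt1a was called there against Q20 (0.53 ± 0.18, limma adjusted p = 0.03).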
